A study of Xenopus laevis with 2 samples.

Results

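Actins and the small actin-binding proteins of the growth cone were examined in the axonal transcriptome of Xenopus laevis retinal ganglion cells (RGCs), the neurons whose axons connect the eye to the brain. The members were chosen by symbol: the cytoplasmic actins actb and actg1, the cofilins cfl1 and cfl2, the profilins pfn1 and pfn2, the thymosin tmsb4x, the transgelins tagln2 and tagln3, and the membrane-bound actin regulator marcks. Of these 10 symbols, 9 were listed, under 14 of the 49349 gene names, and tagln3 was not among the listed names. X. laevis is allotetraploid, so that many genes occur as homeologs on an L and an S chromosome, and these were kept apart.

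The data were 2 replicate RNA-seq libraries of untreated RGC axons from embryos of stages 33/34 to 37/38. Eyes were pooled and grown for 48 h on filters whose 1 µm pores let axons but not cell bodies pass, and the axonal RNA was amplified by PCR as cDNA. No library of cell bodies or whole eyes was analysed here, and the values are levels rather than enrichment over another compartment. In such bulk material, fewer axons and less RNA per axon cannot be told apart.

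A growth cone, the motile tip of an axon, advances by adding actin monomers to filaments at its leading edge and taking filaments apart behind it. Profilin and thymosin β4 hold the pool of monomers, cofilin severs and depolymerises filaments, transgelins bind along filaments, and MARCKS ties actin to the membrane until it is phosphorylated or bound by calmodulin. β-actin mRNA is a classical axonally localised mRNA, and in Xenopus RGC growth cones its local translation is known to accompany turning towards attractive cues.

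Values were FPKM (fragments corrected for transcript length and for the size of the library), so that levels of different genes are compared per length. Whether the amplification of the cDNA acted unequally on different genes was not tested. Pairs of values are those of replicate 1 and replicate 2. The files give no read counts, and the total depth is therefore unknown. A value above 0 was given to 3148 gene names in replicate 1 and to 2873 in replicate 2, out of summed values of 620746 and 725522 FPKM. The lowest values were higher in replicate 2. The 5th percentile of the values above 0 was 0.0772 and 0.302 FPKM in replicates 1 and 2. Among 621 names below 5 FPKM in both libraries, 44 had a ratio of replicate 2 to replicate 1 of 3.71, within 0.01 on the log2 scale. Whether this ratio gives the relative depth of the libraries was not settled. An estimate can fail and be written as 0, and genes without a value are therefore described only as listed at 0. With 1 condition and 2 libraries no test between groups was possible. Even an unpaired comparison of 2 values with 2 others cannot reach an exact two-sided permutation p below 0.333. Levels are called apart only where the ranges of the libraries do not overlap. This rule is descriptive and weak, since such a separation of 2 values from 2 others is itself the outcome with that smallest p. It also leaves out that the values of different names in the same library are paired.

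Most member mRNAs were found in axons. A name was counted as detected when it exceeded 1 FPKM in both libraries. This held for 11 of the 14 member names (78.6%), which belong to 7 of the 10 symbols, and for 4.39% of all gene names (2168 of 49349). All gene names include 15557 models listed only by a LOC number, whereas every member name carries a symbol. The share among names with a symbol was not computed. The members were chosen with earlier results of these data known, so their detected share is a description and not a test. The median of the 14 members was 58.8 and 68.2 FPKM in replicates 1 and 2, whereas the median over all gene names was 0 in both. The member medians exceeded 98.5% and 98.4% of all gene names. Together the members made up 8.18% and 7.23% of the summed FPKM, with 0.0284% of the names. A single name, tagln2.L, carried 79.9% and 72.5% of this member sum, and without it the members made up 1.64% and 1.99% of all FPKM.

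**Figure D1:**
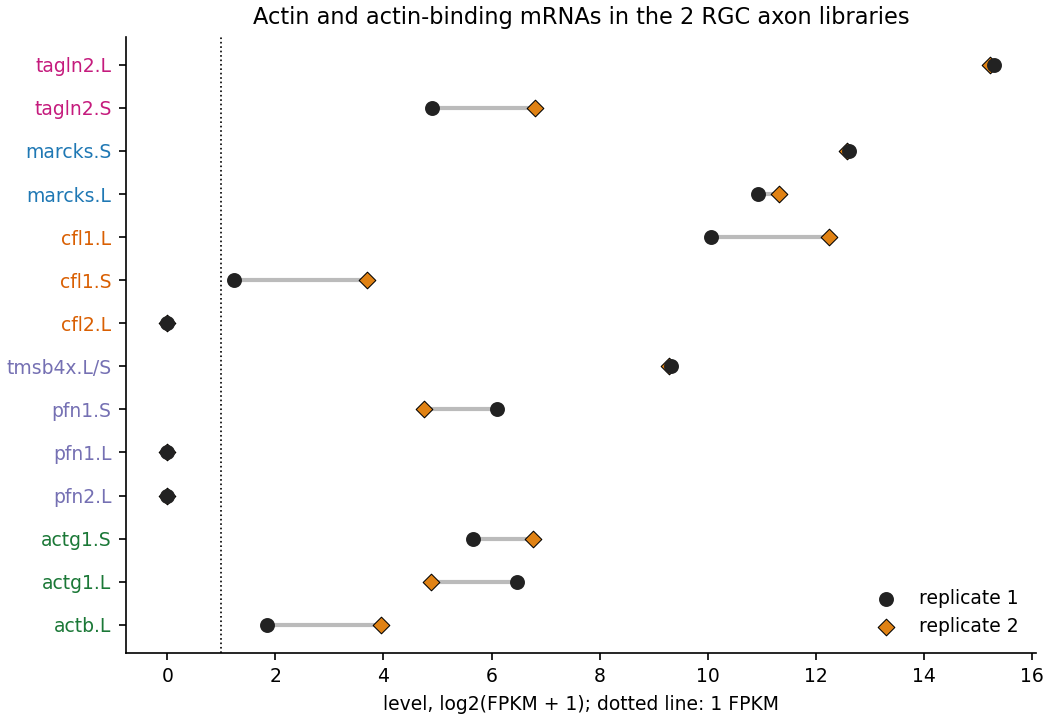
FPKM of each member name in replicate 1 and replicate 2 of the RGC axon libraries, on a log2(FPKM + 1) axis, with names colored by role. tagln2.L stands at 40570 and 38061 FPKM, while cfl2.L, pfn1.L and pfn2.L lie at 0 in both libraries.

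Both transgelin names among the members belonged to tagln2, a calponin-family protein that binds along filaments. tagln2.L (chromosome 8L, 113567052 to 113595660 in the v9.2 genome) had 40570 and 38061 FPKM in replicates 1 and 2, on average 39315 ± 1774 (SD, n = 2). It was the first of all gene names in both libraries, with 6.54% and 5.25% of the summed FPKM. The next name by average FPKM was hmgn1.L, which encodes a nucleosome-binding protein, with 39659 and 36790 FPKM. tagln2.L was the higher in each library, but the ranges of tagln2.L and hmgn1.L overlap. Their levels are therefore not called apart. The S homeolog, tagln2.S (chromosome 8S, 95178136 to 95210070), had 28.7 and 110 FPKM in replicates 1 and 2. It was detected in both libraries, at ranks 1059 and 608.

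marcks was the second most abundant member and the only symbol with both homeologs in the top 100. marcks.S (chromosome 5S, 58481685 to 58490581) had 6307 and 6094 FPKM and ranked 16 in each library, with an average of 6201 ± 150.4 FPKM (SD, n = 2). marcks.L (chromosome 5L, 77039776 to 77044233) had 1950 and 2562 FPKM, at ranks 65 and 60. Both homeologs thus differed little between libraries, and marcks.S was the higher one in each. By average FPKM, marcks.S lay between Xelaev18003345m, a gene model without a symbol, at 8305 and 5003 FPKM, and the tropomyosin tpm4.S at 4610 and 6701 FPKM. marcks.L lay between the ribosomal protein gene rps24.L at 2643 and 1881 FPKM and eny2.S, a subunit of transcription and mRNA export complexes, at 1571 and 2809 FPKM. Each of these 4 neighbours overlapped in range with the marcks homeolog beside it.

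Of the cofilins, which sever filaments, the non-muscle form cfl1 was detected from both homeologs. cfl1.L (chromosome 4L, 27334992 to 27418555) had 1064 and 4848 FPKM in replicates 1 and 2. The libraries thus differed by 4.56-fold for this name, which placed it at rank 114 in the first and rank 27 in the second. Its locus spans 83.6 kb in the files and is shared with mus81.L, a DNA repair gene listed at 0 in both libraries. The loci of cfl1.S and actg1.L are also shared, with ccdc85b.S and Xelaev18043710m. How reads were divided between names at a shared locus was not tested. cfl1.S (chromosome 4S, 1241018 to 1280918) had 1.36 and 12.0 FPKM, the lowest values of any detected member. The muscle-type cofilin cfl2.L (chromosome 8L, 86790638 to 86805720) was listed at 0 in both libraries.

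Among the monomer-binding proteins, thymosin β4 was the more abundant and profilin the less abundant. tmsb4x, on 1 row that names both homeologs (chromosome 2L, 104379741 to 104381537), had 642 and 625 FPKM, at ranks 181 and 208. Its libraries differed by 1.03-fold, the smallest gap of any detected member. Profilin 1, which delivers monomers to growing filament ends, was detected from its S homeolog. pfn1.S (Scaffold20, 6621151 to 6626011) had 67.9 and 26.0 FPKM in replicates 1 and 2. pfn1.L (chromosome 3L, 141423845 to 141429288) and the neuron-enriched profilin pfn2.L (chromosome 5L, 115957485 to 115985719) were listed at 0 in both libraries. The tmsb4x values thus lay above those of pfn1.S in each library, with no overlap.

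The actins themselves were detected at moderate to low levels. γ-actin was found from both homeologs. actg1.L (chromosome 9_10L, 21282884 to 21287502) had 87.3 and 28.5 FPKM in replicates 1 and 2. actg1.S (chromosome 9_10S, 22825126 to 22831208) had 49.8 and 108 FPKM, so that the order of the homeologs was opposite in the libraries. Their sum, in contrast, was nearly the same, with 137.1 and 136.5 FPKM. The β-actin name actb.L (chromosome 9_10L, 84596268 to 84600960) had 2.59 and 14.4 FPKM, at ranks 2028 and 1434. The 3 actin names added up to 139.7 and 150.9 FPKM in replicates 1 and 2.

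The value for β-actin depends on how the gene models are named. The files list 15557 gene models only by a LOC number, and the RefSeq gene table for the assembly Xenopus_laevis_v10.1 gives a symbol for 3709 of them. By this table LOC108703086 (chromosome 9_10S, 76208000 to 76213504 in v9.2) is actb.S, and LOC108699719 is cfl2.S. LOC108703086 had 79.8 and 112 FPKM in replicates 1 and 2, at ranks 628 and 601. If this naming holds, which was not checked by coordinates, most of the β-actin signal stood under a name that a search by symbol does not find. With the RefSeq names, 12 of 16 member names were detected, and the actin sum became 219.5 and 262.9 FPKM. LOC108699719 was listed at 0 in both libraries.

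**Figure D2:**
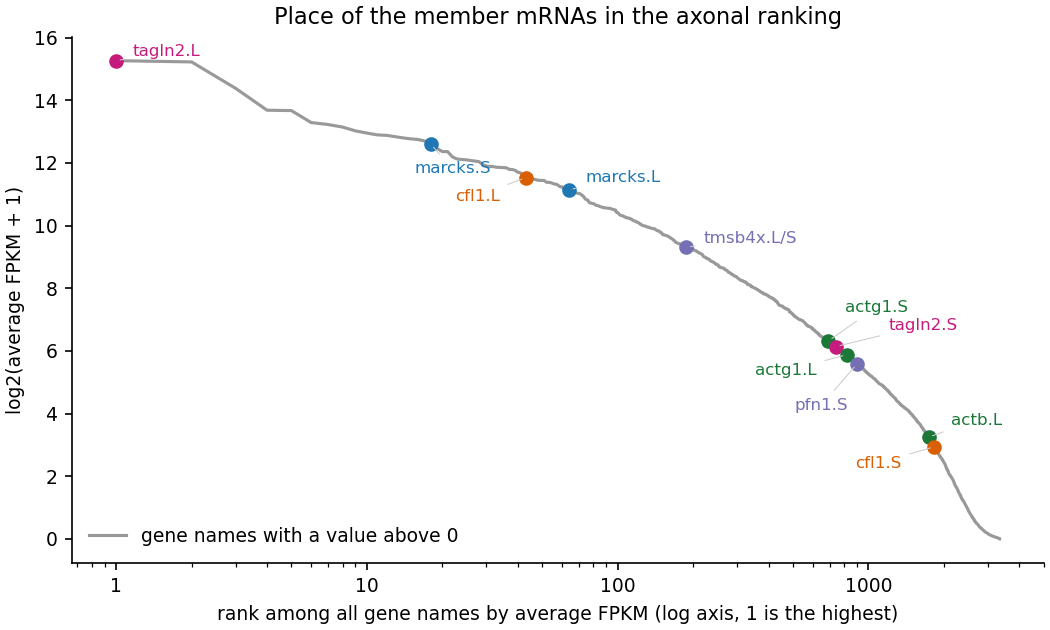
Average level of all gene names with a value above 0, as log2(average FPKM + 1), against their rank on a log axis, with the 11 detected member names marked. The detected members lie between tagln2.L at rank 1 and cfl1.S at rank 1834, and the curve goes on to lower values beyond them.

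By the ranges of the libraries, the 14 member names fell into 7 levels. tagln2.L stood alone at the top, followed by marcks.S. cfl1.L and marcks.L shared the next level, since the range of cfl1.L encloses that of marcks.L, and tmsb4x stood alone below them. actg1.S, tagln2.S, actg1.L and pfn1.S overlapped with each other between 26.0 and 110 FPKM. actb.L and cfl1.S overlapped between 1.36 and 14.4 FPKM, and the 3 names at 0 came last. By this rule the order of neighbours within the levels did not exceed the spread between libraries.

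Set against the actins, transgelins, marcks, cofilins and thymosin had higher summed FPKM, and profilin 1 did not. The pfn1 sum of 67.9 and 26.0 FPKM was below the 3 actin names in both libraries, and cfl2 and pfn2 were listed at 0. The transgelins, here tagln2 only and nearly all tagln2.L, summed to 291 times the 3 actin names in replicate 1 and 253 times in replicate 2. For the marcks homeologs the ratio was 59.1 and 57.4. For the cofilins it was 7.62 and 32.2, with the difference between libraries coming from cfl1.L. Profilins and thymosin together were 5.08 and 4.32 times the actin sum, most of it from tmsb4x. When LOC108703086 was counted as β-actin, the ratios were 185 and 145 for the transgelins, 37.6 and 32.9 for marcks, 4.85 and 18.5 for the cofilins, and 3.23 and 2.48 for profilins and thymosin. These 4 sums remained above the actin sum in both libraries under either naming.

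In the top 100 names, 3 member names were found in replicate 1 and 4 in replicate 2. The 3 names tagln2.L, marcks.S and marcks.L were in the top 100 of both libraries, as were 0.17% of all gene names (84 names). cfl1.L entered the top 100 in replicate 2 only.

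The homeologs of a member often differed widely, as was usual in these libraries. Of the 5 symbols listed under both endings, 3 differed by more than 10-fold on the scale of FPKM + 1 in the same direction in both libraries. Among all 790 pairs with a value over 10 FPKM the same was true of 413 (52.3%), so this share was near the background. tagln2.L was 1411-fold above tagln2.S in replicate 1 and 345-fold above it in replicate 2. On the log2 scale of FPKM + 1 these ratios were 10.41 and 8.42. For cfl1 the L homeolog was higher by 781-fold and 404-fold and gave 99.9% and 99.8% of the summed FPKM of the pair. The third pair was pfn1, where pfn1.L was listed at 0 and no fold can be given.

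The marcks homeologs differed less. marcks.L was at 23.6% and 29.6% of the pair sum, and marcks.S was 3.23-fold and 2.38-fold higher than marcks.L, with no overlap between them. For actg1 the L homeolog gave 63.7% of the pair in replicate 1 and 20.9% in replicate 2. The log2 ratios of L over S were 0.80 and -1.89, of opposite sign. The FPKM of actg1.L and actg1.S overlapped in range, so no order of the actg1 homeologs could be given. How reads were divided between homeologs, or between the actin genes, was not tested. With LOC108703086 taken as actb.S, the log2 ratios of L over S for β-actin were -4.49 and -2.87, with the S homeolog 30.8-fold and 7.77-fold higher. Among pairs with both homeologs above 0, the higher one was thus L for tagln2 and cfl1 and S for marcks and, by the RefSeq name, actb.

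**Figure D3:**
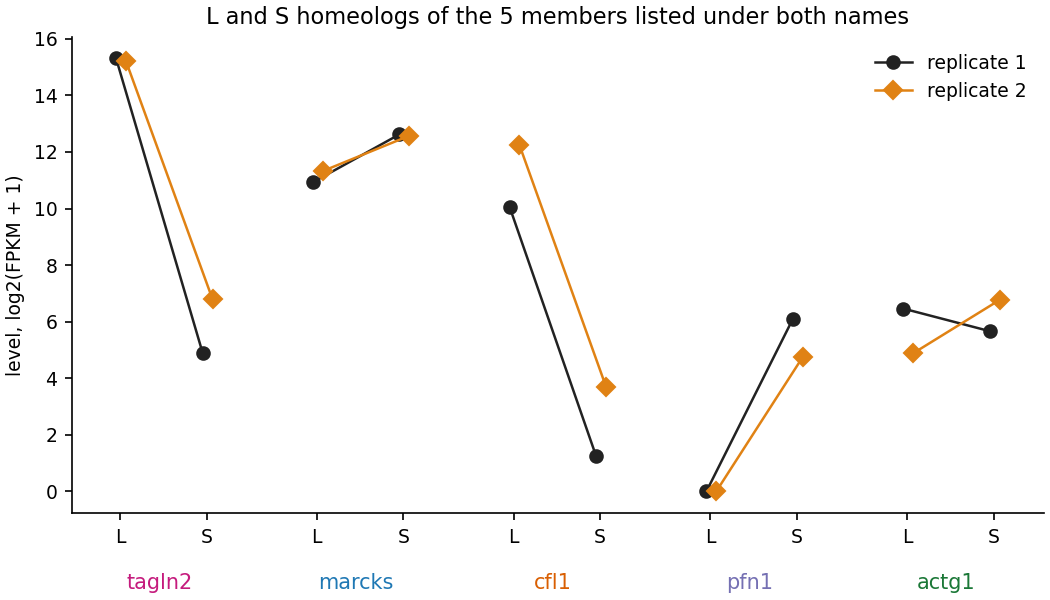
L and S homeologs of the member symbols in each of the 2 libraries on a log2(FPKM + 1) axis. For tagln2 and cfl1 the L values lie far above the S values, for marcks the S values lie 2.38 to 3.23-fold above the L values, and for actg1 the order is opposite in the 2 libraries.

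Among the detected members, the agreement of the libraries followed the level of the mRNA in part. Over all detected names, the median absolute log2 ratio between the libraries was 0.98. Of the 11 detected members, 7 had a larger gap than this median. tagln2.L, marcks.S, marcks.L and tmsb4x had log2 ratios of replicate 1 over replicate 2 of 0.09, 0.05, -0.39 and 0.04. cfl1.L was the abundant exception at -2.19, and 86.2% of all detected names had a smaller gap. The remaining members were at moderate or low levels, with log2 ratios from -2.46 for cfl1.S to 1.58 for actg1.L and the smallest gap, -1.10, for actg1.S. As deposited, 5 members were higher in replicate 1 and 6 in replicate 2, but after rescaling to a median ratio of 0 over all detected names tagln2.L, marcks.S and tmsb4x turned sign and the counts were 2 and 9. The median log2 ratio over all detected names was 0.13 on the scale of FPKM + 1. The rescaling moved tagln2.L from 0.09 to -0.06. The moderate and low members thus differed between libraries by more than 2-fold.

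**Figure D4:**
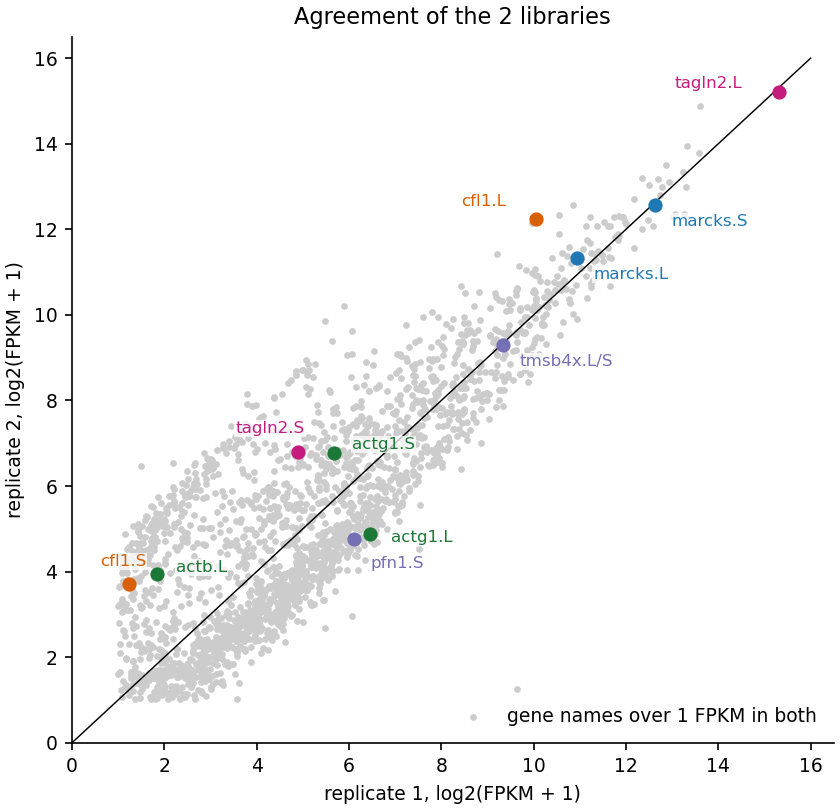
Replicate 2 against replicate 1 for every gene name over 1 FPKM in both libraries (grey) and for the 11 detected member names (colored), both as log2(FPKM + 1), with the line of equality. tagln2.L, both marcks homeologs and tmsb4x lie near the line, while cfl1.L lies well above it.

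Other actin regulators were described from 9 lists ordered by role, with 121 symbols, of which 105 were listed under 176 names. In all, 32 names (18.2%) were detected, against 4.39% of all gene names, and the median of every list was 0 in both libraries. As for the members, models without a symbol are among all gene names but not in these lists. The lists were chosen with earlier results of these data known. The detected share per list ran up to 28.6% (monomer binding and turnover, 4 of 14 names), close to 28.0% for bundling and cross-linking (7 of 25). With the RefSeq names these were 4 of 16 and 7 of 26 names, and membrane linkers, with 3 of 11 (27.3%), had the highest share. Capping and severing proteins, with 1 of 21 names (4.76%), were near the share of all gene names.

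Of the Arp2/3 complex, which nucleates branched filaments, 4 of 16 names (25%) were detected. Its small subunit arpc5.S had 7803 and 8848 FPKM, above marcks.S in each library, and arpc4.S had 4054 and 4587 FPKM. The subunit actr2.L had 360 and 996 FPKM in replicates 1 and 2. The core subunits actr3 and arpc2, named here after their values were seen, were listed at 0. Whether these values of 0 mean absence from the axons was not tested. The Arp2/3 names summed to 12349 and 14556 FPKM, which was below tagln2.L alone and above the sum of the marcks homeologs in each library.

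The filament side-binding group had 6 of 25 names (24%) detected, led by tpm4.S. In the same group the coronin coro1c.L had 195 and 190 FPKM, and the calponin cnn3.L had 151 and 196 FPKM. Of the monomer-binding and turnover group 4 of 14 names were detected. cotl1.L, a coactosin that binds filaments, had 713 and 465 FPKM. twf2.L, a twinfilin that sequesters monomers, had 466 and 454 FPKM. dstn.L, destrin, a close relative of cofilin, had 335 and 161 FPKM. The cotl1.L range encloses that of tmsb4x, whereas dstn.L was below cfl1.L in both libraries.

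Bundling and cross-linking proteins had 7 of 25 names detected. The filopodial bundler fscn1.S had 508 and 290 FPKM in replicates 1 and 2. cttn.L, a cortactin gene that stabilises branches, had 24.4 and 126 FPKM, and a further name for cttn had 18.4 and 38.6 FPKM. Membrane linkers and MARCKS relatives had 3 of 11. The moesin gene msn.L had 2496 and 1801 FPKM, overlapping the range of marcks.L, while its relative rdx.L had 4.71 and 2.48 FPKM. gap43.L, a growth cone protein with a calmodulin-binding domain, had 2.85 and 3.11 FPKM.

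Of the kinases and phosphatases upstream of cofilin 2 of 17 names (11.8%) were detected, and 3 of 20 (15%) with the RefSeq names. The other 15 of the 17 were listed at 0 in both libraries. The detected ones were both homeologs of the kinase pak2, with 48.4 and 24.0 FPKM for pak2.S and 6.67 and 2.69 FPKM for pak2.L. Nucleation and elongation factors other than Arp2/3 had 3 of 39 (7.69%), against 4.39% of all gene names. The WAVE complex subunit brk1.L had 66.0 and 791 FPKM in replicates 1 and 2, abi1.L of the same complex had 17.2 and 7.41 FPKM, and evl.L, an Ena/VASP protein, had 1.87 and 1.98 FPKM. capza2.L, a subunit of capping protein, had 15.5 and 189 FPKM and was the only capping or severing name detected. Of the 8 names for muscle and other actins, 2 (25%) were detected. The smooth muscle actin acta2, on a row that names both homeologs, had 20.4 and 210 FPKM, and actr1a.L, an actin-related protein of dynactin, had 11.4 and 6.56 FPKM.

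**Figure D5:**
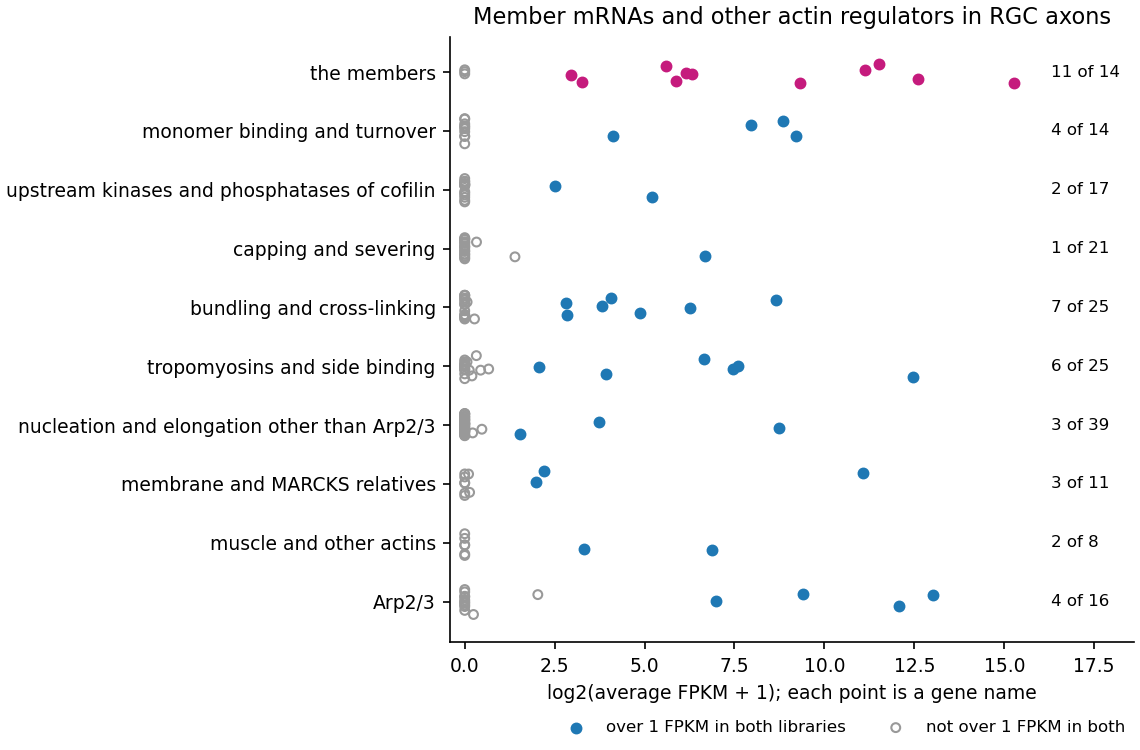
Average level, as log2(average FPKM + 1), of the member names and of each list of other actin regulators in RGC axons, with 1 point per gene name and the number over 1 FPKM in both libraries at the right. Of the members 11 of 14 were over the limit, against 1 of 21 for capping and severing and 4 of 14 for monomer binding and turnover.

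Markers of the labelled cells and of other cells of the eye were measured beside the members, since actins and transgelins are also made by other cells. Of 19 names for RGC and axon markers 3 were detected, with a summed level of 546 and 841 FPKM, and 15 were listed at 0 in both libraries. The detected ones were stmn2.S at 262 and 719 FPKM, stmn2.L at 280 and 120 FPKM, and gap43.L, whereas tubb3, the neurofilament genes and the RGC transcription factors isl1, isl2, pou4f1 and pou4f2 were at 0. Müller glia markers had 2 of 8 names detected and summed to 22.2 and 63.7 FPKM. The detected ones were glul, on a row that names both homeologs, at 8.58 and 58.4 FPKM, and rlbp1.L at 11.3 and 4.94 FPKM. Of the 8 pigment epithelium names 1 was detected, dct.L, at 86.8 and 63.9 FPKM. Connective tissue markers had 2 of 6 names detected and summed to 31.2 and 30.6 FPKM. Here col1a1.S had 27.5 and 27.9 FPKM, and col1a1.L had 3.61 and 2.66 FPKM. Of 5 names for proliferating cells pcna.L was detected, at 150 and 74.3 FPKM. All 7 muscle marker names were listed at 0. The smooth muscle actin acta2, which is not in that list, was detected at 20.4 and 210 FPKM. In replicate 2 this was above the sum of the 3 actin names. With LOC108703086 counted as β-actin, acta2 was below the actin sum of 219.5 and 262.9 FPKM in both libraries. The detected share was 15.8% for the RGC and axon list, against 4.39% of all gene names. It was 25% for Müller glia, 12.5% for pigment epithelium, 33.3% for connective tissue and 20% for proliferating cells. The RGC and axon list thus had the highest summed level but not the highest detected share. The part of other cells in the member values was not tested.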

How the data were processed

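The 2 replicate RNA-seq libraries of X. laevis RGC axons were analysed. The authors converted the reads with bcl2fastq, used HISAT2 2.1.0 for mapping against the v9.2 assembly of X. laevis, and deposited FPKM estimated by Cufflinks 2.1.1 for each library apart. The gene annotation is not given in the sources used here. PCR amplification of small RNA amounts adds error that FPKM does not show.

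The 51037 rows were summed by gene name to 49349 names. Of these, 415 names stood on several rows, none of them a member. Member symbols were matched after removing the ending L or S. The names tagln2.L, marcks.L and pfn1.S are short forms of joined names that also hold LOC108699434, LOC108716823 and MGC64293. Whether both parts of each joined name mean the same gene was not checked. Log values are log2(FPKM + 1), and rank 1 is the highest FPKM. Detection was FPKM over 1 in both libraries, the limit that the study used for its GO analysis. Homeolog pairs were compared when a value exceeded 10 FPKM. Symbols for LOC names came from the RefSeq gene table of Xenopus_laevis_v10.1, of which no coordinates were used.

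Named genes were all member names, the names next above and below each member in the top 100 of both libraries, and the 3 highest detected names of each regulator list. Of the markers, the detected names were given, and some of the RGC markers listed at 0. A list of regulators and a list of markers are not reported here. The members and lists were chosen with earlier results of these data known. No p-values were computed. Ranking, pairing and detection were tested on simulated data. Alternatives were the detection limit, pseudocount, repeated names, homeologs, the names in the total, rescaling, and leaving out each library. The RefSeq naming, the 5-fold and 20-fold limits, the total without tagln2.L and the regulator counts in single libraries were chosen after seeing the data. Python 3.11.15, numpy 2.4.6, pandas 2.3.3 and matplotlib 3.10.9 were used.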

Additional observations from a re-analysis of the deposited data

How the results depend on the processing

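The number of detected members stayed between 9 and 12 under every limit, naming and left-out library tried, and was 11 without either replicate. Of all gene names, 5.44% exceeded a limit of 0 FPKM in both libraries, 3.23% a limit of 5 and 2.65% a limit of 10. The median level of the member names on the log2 scale, 5.76, was 6.01 with a pseudocount of 10, 6.22 over names with a value above 0, 6.12 with homeologs averaged, and 5.82 to 5.89 without 1 of the replicates. The averaged member share of the summed FPKM, 7.71%, was 2.43% without the 10 highest gene names (tagln2.L among them), 1.82% without tagln2.L, 10.05% without ribosomal protein names, and 7.23 to 8.18% without 1 of the replicates. Members in the top 100 numbered 3 to 4 without 1 of the replicates. Homeolog pairs over 10-fold remained at 3, except with a pseudocount of 10, where there were 2. The log2 ratio of L over S for pfn1, -5.43, was -8.72 and -2.41 with pseudocounts of 0.1 and 10, because pfn1.L was listed at 0. For cfl1 it was 9.08 and 7.17, against 8.68. For actg1 it was -1.89 without replicate 1 and 0.80 without replicate 2. The count of detected regulators, 32, was 19 with a limit of 10 FPKM and 33 to 34 without 1 of the replicates. Both libraries belong to 1 group, so there was no pairing between groups. Names compared with each other were paired by library, and the ratio of L over S was taken within each library. Depth is unknown, so values near 1 FPKM, such as cfl1.S, carry no counting interval.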
